A study of Homo sapiens with 2 samples.

Results

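The keratin genes, taken as every gene symbol made of KRT, a number and at most 1 capital letter, comprised 55 of the 19198 named genes for which expression values were deposited, with genes of keratin-associated proteins left out. They were grouped into 5 keratins of simple epithelia, 23 of stratified epithelia, 9 of the inner root sheath and companion layer of the hair follicle and 17 of the hair shaft, and KRT222, an atypical short member, stayed ungrouped. Expression was measured by sequencing polyA RNA in 1 library of A549-NICD1 and 1 library of A549-Vector. A549 is an established line from a human lung adenocarcinoma, a form of non-small cell lung cancer (NSCLC). A549-NICD1 cells overexpressed NICD1, the intracellular domain that is cut from the NOTCH1 receptor when it is activated and then acts in the nucleus, and A549-Vector cells were the vector control. According to the methods of the study, the NICD1 reading frame was carried by a lentiviral vector and stable lines were selected with antibiotics, and whether a line was 1 clone or a pool is not given in the sources used here. With 1 library for each condition no difference has a replicate check, so no p-value is given and all intervals cover counting error only.

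Keratins are the intermediate filament proteins of epithelial cells. Acidic type I chains and basic to neutral type II chains pair with each other and assemble into filaments that are anchored at desmosomes and give cells mechanical strength. KRT8, of type II, and KRT18, of type I, are the first pair made in simple epithelia, such as those that line glands and the distal lung, where they are usually accompanied by KRT7 and KRT19. KRT5 and KRT14 mark basal cells of stratified epithelia, KRT1 and KRT10 the layers above them, and hair keratins are made in the hair shaft. In the human genome nearly all type II genes lie together on chromosome 12 and type I genes on chromosome 17, with KRT18 placed beside KRT8 as the exception.

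Values are in FPKM, the fragments counted for a gene divided by its length and by the depth of the library, so that levels of different keratins can be set side by side. From the steps between low values whole reads were recovered at a depth of 48528434 reads in A549-NICD1 against 48602848 in A549-Vector. NOTCH1, the source of the overexpressed domain, was at 2865 FPKM in A549-NICD1 and 5.40 FPKM in A549-Vector. The list of A549 markers held 16 genes, of which 8 were under 1 FPKM in both libraries (KRT7, KRT19 and FGB among them, at 0) and 7 were at 1 FPKM or more in both, with a summed level of 328 FPKM in A549-NICD1 and 182 FPKM in A549-Vector, most of it from KRT8 and KRT18. Of 9 genes listed for the embryonic kidney line HEK293, none was at 0 and 8 reached 1 FPKM in each library, with a summed level of 317 and 348 FPKM. CDKN2A was the highest of these at 138 FPKM in A549-NICD1 and 139 FPKM in A549-Vector, followed by IGF2BP1 at 77.6 and 84.1 FPKM. The 6 fibroblast markers summed to 9.76 and 15.3 FPKM with COL1A2 at 0, and the 5 keratinocyte markers to 0.0677 and 0.0934 FPKM with KRT5 and KRT14 at 0. The labelled cell type was therefore only partly matched by its markers in both libraries, while most genes listed for HEK293 were present in both. Whether the sequenced cells were A549 was not tested, nor was the part of cell identity in the results below. The names A549-NICD1 and A549-Vector are used below as the labels give them.

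Over the aligned coding sequence KRT8 and KRT18 were identical at 62.5% of bases. Processed copies of the genes are closer than the keratins are to each other. KRT8 had 26 annotated pseudogenes with at least 90% identity over 200 bases or more, of which KRT8P3 was the closest with 97.1% identity over 1449 bases. KRT18 had 38 such pseudogenes, and KRT18P10 was the closest with 95.1% identity over 1294 bases. None of these pseudogenes had a row of its own in the deposited tables, and how reads that match both a keratin and a copy were counted is not given in the sources used here. Of 100-base windows of the transcript, 8.33% in KRT8 occurred exactly in KRT8P3, 18.5% in KRT18 occurred in the opposite strand of KRT8 transcripts, none in KRT10 occurred elsewhere, and 57.6% in KRT222 occurred in the overlapping gene AC073508.2. Exons of KRT8 and KRT18 overlapped on opposite strands over 525 bases. The supplement of the study calls the sequencing strand-specific, whereas the kit as named in the labels does not mark strand, and how strand was used in counting is not given in the sources used here. Counts from this stretch are therefore uncertain for both genes.

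A single pair of keratins made up nearly all keratin RNA in both libraries, and both were higher in A549-NICD1. Of the 55 genes, 36 were listed at 0 in both libraries, 14 had 1 to 9 reads in the higher library, and 5 had at least 10 reads in a library, namely KRT8, KRT18, KRT10, KRT222 and KRT27. The summed level of all keratins was 321 FPKM in A549-NICD1 and 173 FPKM in A549-Vector. KRT8 and KRT18 together took 95.4% of this sum in A549-NICD1 and 92.0% in A549-Vector. Without these genes the sums were 14.8 and 13.8 FPKM, so the difference in total keratin level lay in the simple epithelial pair. In cells measured in bulk, more cells with a keratin and more keratin RNA for each cell cannot be told apart.

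**Figure D1:**
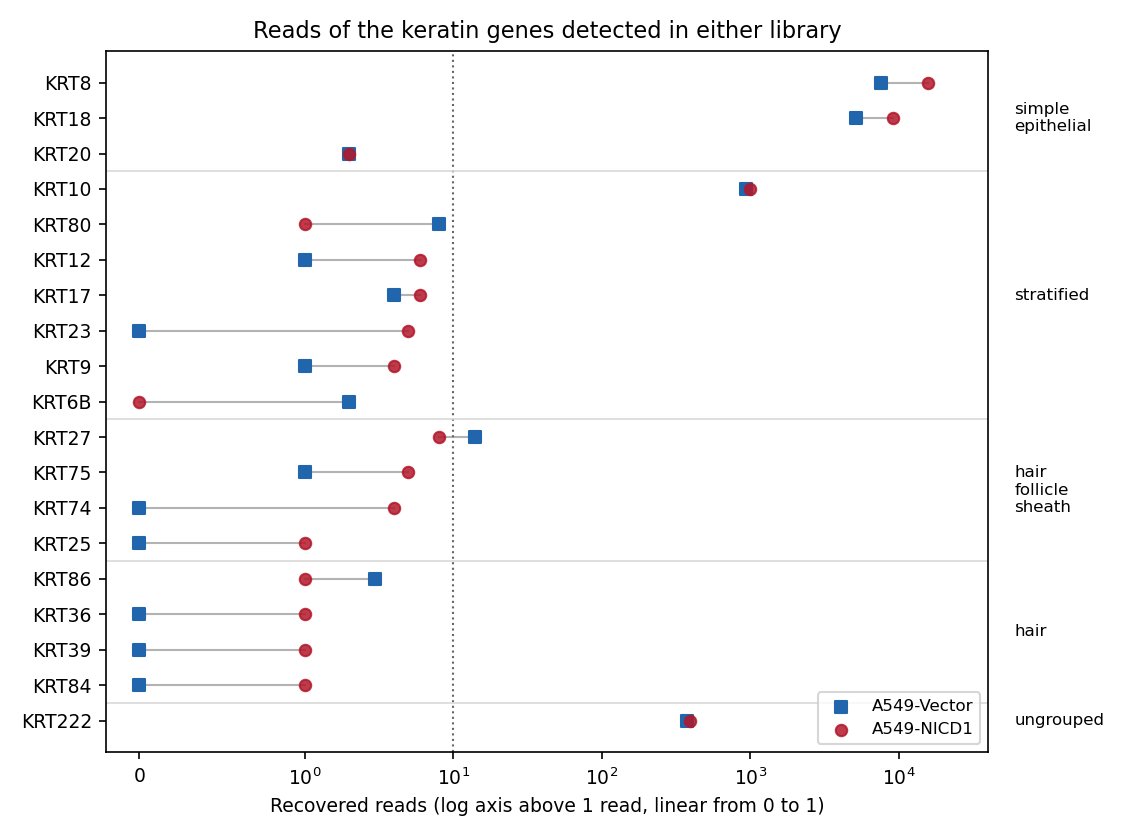
Recovered reads (horizontal axis, logarithmic above 1 read and linear from 0 to 1) of the 19 keratin genes with a read in either library, by group, with squares for A549-Vector, circles for A549-NICD1 and a dotted line at 10 reads. KRT8 and KRT18 stand at 5131 reads or more in both libraries, KRT10 and KRT222 lie between 376 and 998 reads, and the other genes are at 14 reads or fewer.

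KRT8, the main type II keratin of simple epithelia, was at 176 FPKM in A549-NICD1 and 85.9 FPKM in A549-Vector, from 15632 and 7636 reads. After scaling of the depths it was 2.13-fold higher in the NICD1 cells, that is, 1.09 on the log2 scale (95% interval 1.05 to 1.13). Ordered by FPKM, it held place 255 of all genes with NICD1 and place 739 with the vector. KRT18, its type I partner, was at 130 FPKM in A549-NICD1 and 73.1 FPKM in A549-Vector, from 9137 and 5131 reads. It was 1.85-fold higher, or 0.89 on the log2 scale (95% interval 0.84 to 0.94), and held places 394 and 939. Both genes of the pair were thus higher in the same library, and both intervals lay clear of 0, which covers counting error and not the spread between cultures.

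The pair did not differ by the same factor. KRT8 reads relative to KRT18 reads were 1.15 times as many in A549-NICD1 as in A549-Vector (exact conditional 95% interval 1.10 to 1.20). Per length, KRT8 was at 1.35 times the level of KRT18 in A549-NICD1 and at 1.18 times in A549-Vector. Summed over the 26 type II and 28 type I genes, the level of type II keratins was 1.26 times that of type I keratins in A549-NICD1 and 1.04 times in A549-Vector. KRT10, also of type I, is part of the type I sum.

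All genes give the background for these differences. On the log2 scale, 4.34% of the 15310 genes that reached 10 reads in either library exceeded 1 and 2.21% lay under -1. Of the 5 keratins with at least 10 reads, 1 (KRT8) was above 1 and 0 were below -1. These counts are too small to be read against the background. Of the 8955 genes that reached 1000 reads in either library, 31 had a log2 fold change as high as that of KRT8 or higher and 46 one as high as that of KRT18 or higher, counting KRT8 and KRT18 themselves.

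**Figure D2:**
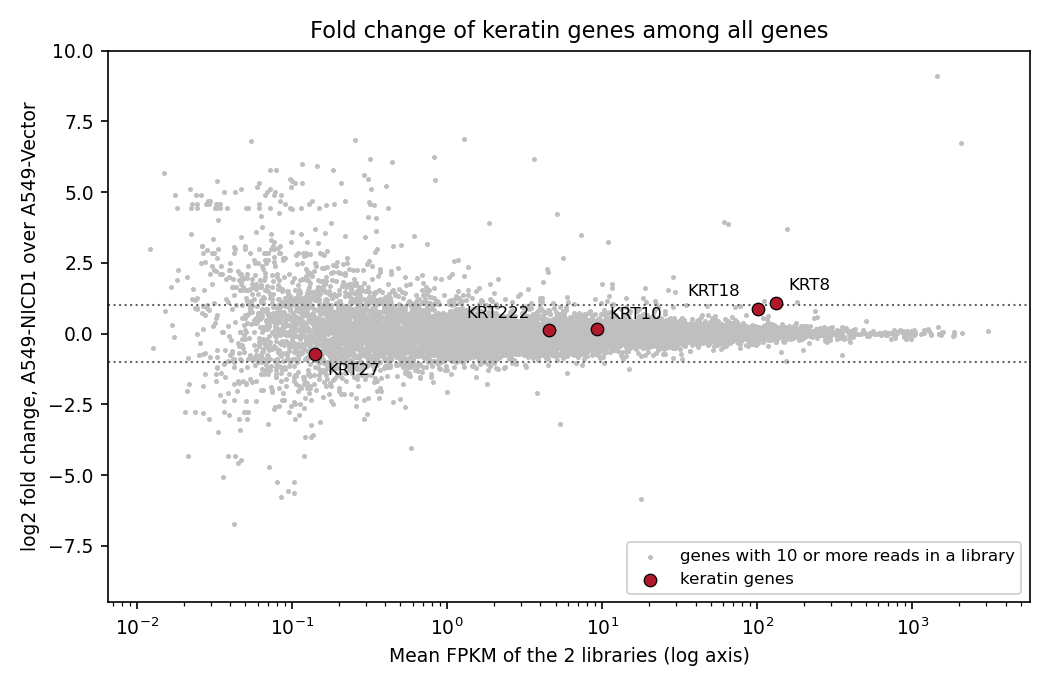
Log2 fold change of A549-NICD1 over A549-Vector (vertical axis) against the mean FPKM of the libraries (horizontal, log axis) for genes that reached 10 reads in either library, in grey, with the 5 keratins of that depth in red and dotted lines at 1 and -1. KRT8, at 1.09, lies just above the upper line and KRT18, at 0.89, just below it, while KRT10 and KRT222 lie near 0.

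The remaining keratins with many reads were at like levels in both libraries. KRT10, a type I keratin of the layers above the basal layer in skin, was at 9.61 FPKM in A549-NICD1 and 8.999 FPKM in A549-Vector, from 998 and 936 reads, or 0.15 on the log2 scale (95% interval 0.02 to 0.28). KRT222 was at 4.67 and 4.46 FPKM, from 393 and 376 reads, or 0.12 on the log2 scale (95% interval -0.09 to 0.33). The count of KRT222 is uncertain, given the sequence it shares with AC073508.2, and its interval held 0. That of KRT10 began just above 0, which depends on the scaling, as its log2 fold change was 0.09 without scaling. Because KRT18 was higher and KRT10 nearly level, KRT10 came to 7.37% of the level of KRT18 in A549-NICD1 and 12.3% in A549-Vector. KRT1, the usual type II partner of KRT10 in skin, was listed at 0 in both libraries, and no other type II keratin than KRT8 was above 0.05 FPKM.

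The keratins that commonly accompany KRT8 and KRT18 were listed at 0 or had 2 reads. KRT7 and KRT19 were listed at 0 in both libraries. A count of 0 allows up to 3 reads, which would be 0.0574 FPKM for KRT7 and 0.0444 FPKM for KRT19 in A549-Vector at their annotated lengths. KRT20, a keratin of intestinal and urothelial epithelium, had 2 reads in each library, or 0.0228 FPKM in both. The simple epithelial keratins were therefore represented by KRT8 and KRT18 among the 5 genes of this group.

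Of the 23 stratified keratins, 16 were listed at 0 in both libraries, including KRT5 and KRT14, and 7 had a read. Apart from KRT10 these had 8 reads or fewer. KRT80, a type II keratin, had 1 read in A549-NICD1 against 8 in A549-Vector, a ratio of 0.130 (95% interval 0.00293 to 0.969). KRT17, which is induced in injured skin, had 6 and 4 reads, and KRT12, the keratin of the corneal epithelium, had 6 and 1. KRT9, known from the skin of palms and soles, had 4 and 1 reads. Of these, KRT80 alone had an interval that did not hold 1. KRT23 had 5 reads in A549-NICD1 against 0 in A549-Vector, and KRT6B had 0 and 2. Set against a floor of 3 reads for the library at 0, the ratio of KRT23 was 1.73, which leaves out the counting error of its 5 reads. The interval of the ratio began at 0.952 and so held 1.

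Hair follicle and hair keratins were present in traces. Of the 9 keratins of the inner root sheath and companion layer, 5 were listed at 0 in both libraries. KRT27 of the inner root sheath had 8 reads in A549-NICD1 against 14 in A549-Vector, at 0.102 and 0.179 FPKM, or -0.72 on the log2 scale (95% interval -2.21 to 0.60). KRT75 had 5 and 1 reads, KRT74 had 4 and 0, and KRT25 had 1 and 0. The interval for KRT27 held 0, and that for KRT75 held a ratio of 1, from 0.581 to 246. For KRT74 the ratio against the floor was 1.39, and the interval of its ratio began at 0.686, so it held 1 too. Of the 17 hair keratins, 13 were listed at 0 in both libraries. KRT86 had 1 read in A549-NICD1 against 3 in A549-Vector, and KRT36, KRT39 and KRT84 had 1 read each in A549-NICD1 and 0 in A549-Vector, so that no fold is given for them.

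Taking the 14 genes with 1 to 9 reads in the higher library as a group, 10 had more reads in A549-NICD1, 3 had more in A549-Vector and 1 had as many in both. Their reads summed to 38 in A549-NICD1 and 22 in A549-Vector. In all, 6 of the 14 had a read in A549-NICD1 alone and 1 in A549-Vector alone. Of all 1866 genes with as few reads, 56.9% had more reads in A549-NICD1 and 34.2% had more in A549-Vector, and 33.0% had reads in A549-NICD1 alone and 16.2% in A549-Vector alone, so more genes of this depth lay on the NICD1 side among all genes too. KRT80 alone of the 14 genes had a counting interval that did not hold 1, and it ended at 0.969. With 14 intervals looked at and 1 library for each condition, no difference in a single trace gene can be called.

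The deposited genes lay in 2 clusters, with 27 keratins on chromosome 12 between positions 52168996 and 52952901 and 28 on chromosome 17 between positions 40654665 and 41624842 (GENCODE 29, GRCh38). KRT8 is annotated at chromosome 12, 52897187 to 52949954, on the minus strand, and KRT18 at 52948871 to 52952901 on the plus strand, at one end of the type II cluster. KRT222 is annotated at chromosome 17, 40654665 to 40665181, KRT27 at 40776808 to 40782534 and KRT10 at 40818117 to 40822595, all on the minus strand. The chromosome 12 cluster held 2 and the chromosome 17 cluster 3 of the 5 keratins with at least 10 reads. On the cluster side of KRT8 the nearest gene with at least 10 reads in a library, ATG101, lay 820 kb away, and from KRT10 into its cluster the nearest such gene, EIF1, lay 866 kb away. The stretches between hold the other type II and most of the type I keratin genes, which were at 0 or in traces.

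The genes around KRT8 and KRT18 differed among themselves. The 10 nearest genes with at least 10 reads, 5 on each side, had log2 fold changes from -0.55 to 1.42 with a median of -0.063, and 1 of them was above 1. EIF4B, which encodes a translation initiation factor and lies 53.3 kb beyond KRT18, was at 135 FPKM in A549-NICD1 and 161 FPKM in A549-Vector, or -0.20 on the log2 scale (95% interval -0.24 to -0.17). TNS2, which encodes the focal adhesion protein tensin 2 and lies 94.1 kb away, was at 4.27 and 1.66 FPKM, or 1.42 on the log2 scale (95% interval 1.25 to 1.59). Of these the nearer was thus slightly lower in A549-NICD1, and the farther had a larger difference than the keratins. ATG101, an autophagy gene, was at 23.2 and 20.7 FPKM, or 0.22 on the log2 scale (95% interval 0.11 to 0.32).

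**Figure D3:**
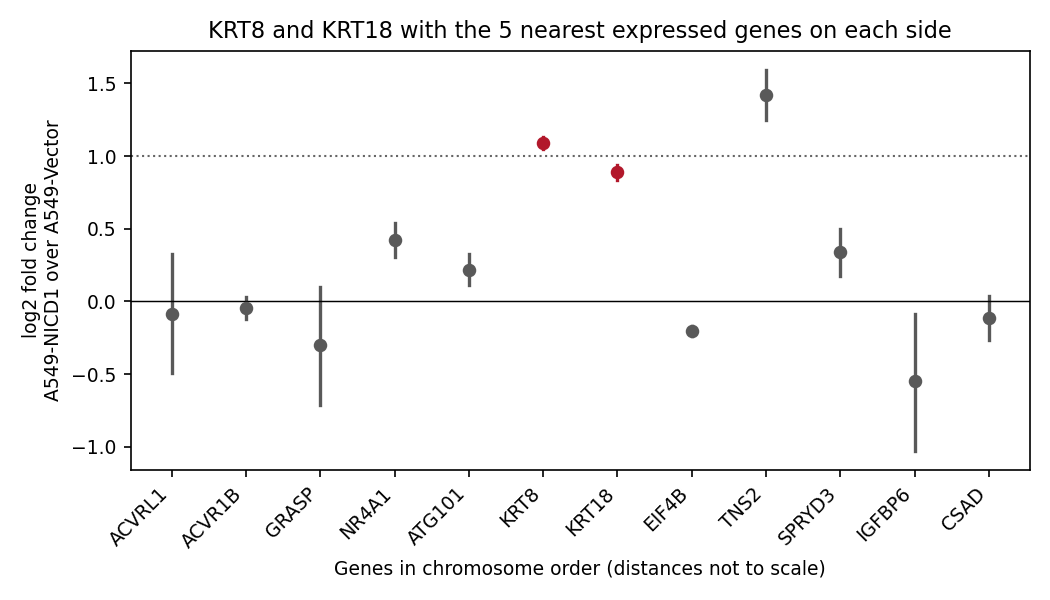
Log2 fold change of A549-NICD1 over A549-Vector (vertical axis) for KRT8 and KRT18 (red) and the 5 nearest genes with at least 10 reads on each side (grey), in chromosome order with distances not to scale, and bars for the 95% counting interval. KRT8, KRT18 and TNS2 lie above 0.8, and the other genes lie between -0.55 and 0.42.

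Promoters of KRT8, KRT18, KRT10 and KRT222 were looked up in RefSeq (GRCh38.p14), and 2 matched, that of KRT8, the keratin with the highest level, and that of KRT10, whose level was like in both libraries. The 250 bases before each start are given 5′ to 3′ on the strand of the gene, for KRT8 at chr12:52926470-52926719 and for KRT10 at chr17:40822615-40822864, both on the minus strand, with matches to the motifs searched in capitals.
KRT8: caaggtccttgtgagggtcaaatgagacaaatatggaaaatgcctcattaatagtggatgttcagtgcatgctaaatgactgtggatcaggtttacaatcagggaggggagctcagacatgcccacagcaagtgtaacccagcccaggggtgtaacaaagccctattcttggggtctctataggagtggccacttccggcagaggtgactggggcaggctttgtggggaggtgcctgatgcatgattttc
KRT10: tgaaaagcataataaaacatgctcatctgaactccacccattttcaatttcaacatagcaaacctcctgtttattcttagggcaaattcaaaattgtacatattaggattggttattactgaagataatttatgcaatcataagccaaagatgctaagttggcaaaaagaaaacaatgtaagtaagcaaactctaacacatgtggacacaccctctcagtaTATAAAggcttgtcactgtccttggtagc
The motifs searched on both strands were TGGGAA, the core bound by the Notch partner RBPJ, which 20.8% of 35116 promoters of the same length hold, TGANTCA of AP-1, which 6.57% hold, GGGCGG of SP1, which 42.6% hold, and TATAAA of the TATA box, which 10.7% hold. In KRT10 TATAAA was found with its first base 29 bases before the start. None of the motifs was found in the KRT8 window, which says only that these letters are not in this window. GENCODE 29 gives 17 start positions for the 17 transcripts of KRT8, and the start used here lies 19.9 kb upstream of that of the transcript nearest in length to the one behind the deposited values. Which start the reads came from cannot be read from gene totals.

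The genes that build on keratin filaments were next set beside the keratins, as lists chosen for their roles. DSP encodes desmoplakin, the protein that ties keratin filaments to desmosomes. It was at 101 FPKM in A549-NICD1 and 53.1 FPKM in A549-Vector, from 43031 and 22613 reads, and was 1.98-fold higher, or 0.98 on the log2 scale (95% interval 0.96 to 1.01). Most other desmosomal and linker genes were nearer to level. Of 20 genes in the list, 17 had at least 10 reads in a library, 1 was above 2-fold and 1 below, and the median log2 fold change was -0.014, beside 4.34% above, 2.21% below and a median of -0.0029 over all genes tested. DSG2, the desmosomal cadherin of simple epithelia, was at 54.3 and 56.9 FPKM, or -0.014 on the log2 scale (95% interval -0.05 to 0.02). EVPL, which encodes envoplakin, had 30 reads in A549-NICD1 against 7 in A549-Vector (log2 interval 0.94 to 3.59). DSG3, a desmosomal cadherin of stratified epithelia, had 1 and 17, as estimated from its annotated length (log2 interval -9.42 to -1.36). These low-count genes were the ones beyond 2-fold. EVPL met the filter on reads through A549-NICD1 alone and DSG3 through A549-Vector alone. Of all genes with 10 to 99 reads in the higher library, 20.9% were above 2-fold and 10.7% below.

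Of 15 other intermediate filament genes, 14 had at least 10 reads and all 14 differed by less than 2-fold, some higher and some lower. Over all genes tested 4.34% were above 2-fold and 2.21% below, so most genes differed by less than that too. The median log2 fold change of the list was -0.019, beside -0.0029 over all genes tested. Its range was from -0.72 for PRPH, which encodes peripherin, to 0.46 for INA, which encodes alpha-internexin. PRPH had 224 reads in A549-NICD1 against 384 in A549-Vector, and GFAP, the filament gene of astrocytes, had 366 and 600, or -0.66 on the log2 scale (95% interval -0.85 to -0.47). VIM encodes vimentin, the filament protein of mesenchymal and many cultured cells, and was at 441 FPKM in A549-NICD1 and 411 FPKM in A549-Vector, above KRT8 in both libraries. LMNB2, which encodes the nuclear lamin B2, was at 103 and 109 FPKM. The level of KRT8 relative to vimentin was therefore higher in A549-NICD1, and vimentin was the most abundant of the listed filament genes in both.

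Transcription factors of epithelial cells were also mixed. Of 16 genes, 12 had at least 10 reads, 2 were above 2-fold and 0 below, and the median log2 fold change was -0.0069, beside 4.34% above, 2.21% below and a median of -0.0029 over all genes tested. KLF4, a Krüppel-like factor of differentiating epithelia, was at 5.58 FPKM in A549-NICD1 and 2.42 FPKM in A549-Vector, from 795 and 345 reads, or 1.26 on the log2 scale (95% interval 1.08 to 1.45). OVOL1 had 10 reads in A549-NICD1 against 0 in A549-Vector, a ratio of 3.46 against the floor of 3 reads. Counting error allows less, as its interval began at a log2 value of 1.22. It met the filter on reads through A549-NICD1 alone. Of all genes with 10 to 99 reads in the higher library, 20.9% were above 2-fold. TFAP2A, the most abundant factor listed, was at 28.7 and 37.5 FPKM, and KLF5 at 12.7 and 13.0 FPKM. TP63, the master factor of stratified epithelium, had 5 and 1 reads.

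Genes of the cornified envelope, which stratified keratinocytes form in their last stage, were mostly at 0 or in traces. Of 19 genes, 7 were listed at 0 in both libraries and 9 had at least 10 reads in a library, of which 4 were above 2-fold and 0 below, with a median log2 fold change of 0.33, beside -0.0029 over all genes tested. The 4 genes had 10 to 33 reads in the higher library, and of all 2555 genes with 10 to 99 reads in the higher library 20.9% were above 2-fold and 10.7% below, against 4.34% and 2.21% over all depths. KRTDAP, a keratinocyte differentiation gene, had 26 reads in A549-NICD1 against 2 in A549-Vector, a ratio of 13.5 with a log2 interval of 1.76 to 6.88. SBSN, TGM3 and FLG2 had 14, 10 and 33 reads in A549-NICD1 and 2, 1 and 7 in A549-Vector, with log2 intervals that began at 0.74, 0.56 and 1.09. All 4 rest on few reads in A549-Vector and met the filter on reads through A549-NICD1 alone. Neither their count nor the median is therefore read as a trait of the list. DMKN and CNFN, the most abundant of the list, were at 54.1 and 8.04 FPKM in A549-NICD1 and 44.7 and 9.63 FPKM in A549-Vector. Of the 91 genes of keratin-associated proteins, the matrix proteins of hair, 79 were listed at 0 in both libraries and 3 had at least 10 reads. Of these 3, KRTAP21-2 was above 2-fold with 20 reads against 2, and it met the filter on reads through A549-NICD1 alone. The share of 20.9% above 2-fold among all genes of that depth applies here too. KRTAP19-1, the most abundant, had 80 reads in A549-NICD1 against 140 in A549-Vector, and KRTAP5-1 had 12 and 6.

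**Figure D4:**
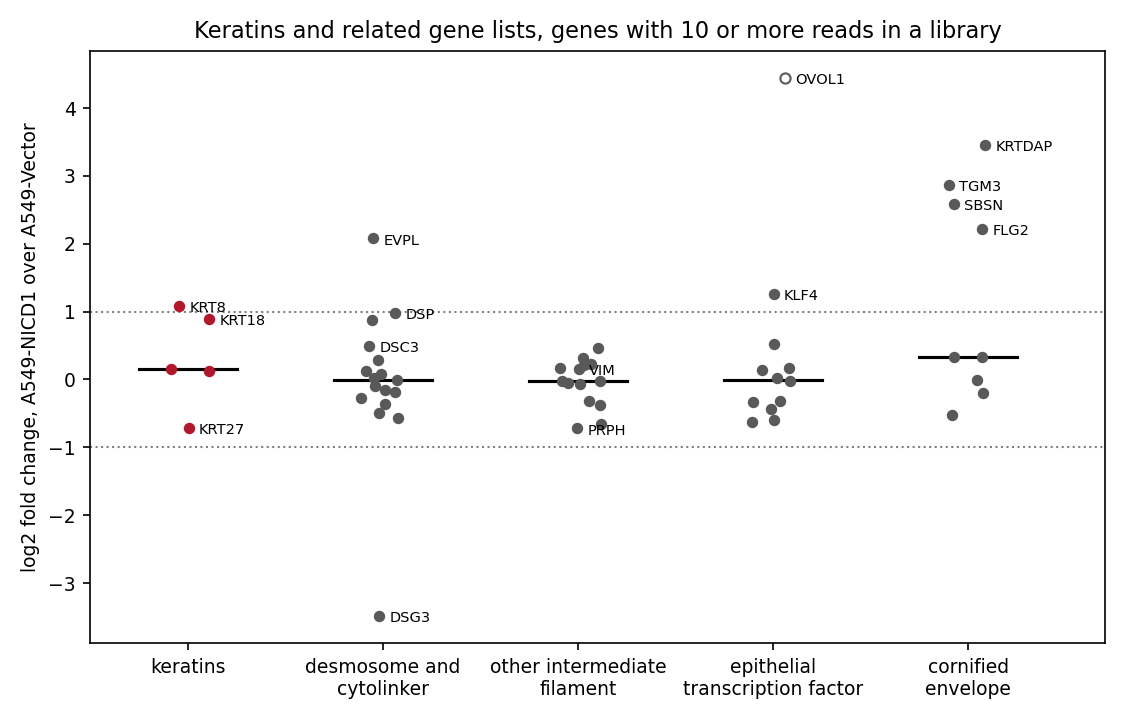
Log2 fold change of A549-NICD1 over A549-Vector (vertical axis) for the 5 keratins and for the lists of desmosome and linker, other intermediate filament, epithelial transcription factor and cornified envelope genes, with 1 point for each gene that reached 10 reads in either library, black bars for the medians and dotted lines at 1 and -1. The open point, OVOL1, had 0 reads in A549-Vector, so that its height depends on the pseudocount, and the medians of these 4 lists lie between -0.019 and 0.33.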

How the data were processed

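Messenger RNA was sequenced in 1 library of A549-NICD1 and 1 of A549-Vector, grouped by the genotype in their labels. The authors deposited 1 value for each gene, which the values show to be FPKM, that is, whole reads over gene length and depth. The submitters' processing notes name Bowtie2, HTSeq and hg38. The supplement of the study calls the sequencing strand-specific. Versions, annotation, filters and the strand setting used in counting are not given in the sources used here.

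Whole reads were recovered from the tables alone. Genes with equal reads gave the ratio of the depths, ratios of whole numbers gave reads up to a common factor, the depth was that at which gene lengths came out whole (within 0.0001 bases beside rounding), and the factor was set by the nearest GENCODE 29 transcript length. This gave reads for 98.9% of 17204 rows above 0. For 188 more, reads were estimated from the annotated length, and 2 genes were left out. Recovered reads summed to 108% of each depth, so a gene's reads can be off by a whole-number factor, which alters intervals and the filter on reads but hardly the ratios. A total of 27 rows named by date numbers were left out.

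Log2 ratios of A549-NICD1 to A549-Vector used reads with 0.5 added, with the depth of A549-NICD1 multiplied by 0.964 from a trimmed mean of log ratios (30% of ratios and 5% of expression trimmed at each end). Such ratios understate the change of low genes. Intervals are 95% Clopper-Pearson intervals of the share of a gene's reads, computed with SciPy 1.17.1, and cover counting error only. A gene with at least 10 reads in a library counted as measured. Near copies were searched with blastn 2.17.0. The steps were tested on simulated reads. Keratins at 1 FPKM or with 10 reads in a library were named, with KRT5, KRT7, KRT10, KRT14, KRT19 and KRT20 in any case, and the trace genes were added to account for all members. Of the other lists the most abundant genes and those beyond 2-fold were named. Keratins and lists were chosen with earlier results of these data known. TP63, PRPH, INA, GFAP, EIF4B, TNS2, ATG101, the KRT10 promoter and the shares over all genes of low depth were added after values were seen.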

Additional observations from a re-analysis of the deposited data

How the results depend on the processing

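With 1 library for each condition the spread between cultures cannot be estimated. No paired analysis was possible because a single library stood for either condition. The counts of 1 keratin above 2-fold and 0 below were the same under each scaling, pseudocount and stricter filter tried. Without a filter on reads, 6 of 12 keratins counted were above and 1 below, as genes with few reads then counted. With a threshold of 1.5-fold, 2 of 5 were above and 1 below. The shares over all genes at these settings are not given here, so these counts are not read as a trait of keratins. Without KRT8 and KRT18 the summed keratin level was 14.8 FPKM in A549-NICD1 and 13.8 FPKM in A549-Vector. KRT8 over KRT18 alone was 1.35 and 1.18, against 1.26 and 1.04 over all genes of type II and type I. Without scaling, the log2 fold change was 1.04 for KRT8 and 0.83 for KRT18, just outside their counting intervals, and the other 23 of 25 values of single keratins stayed inside theirs.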
